A study of Homo sapiens with 6 samples.

Results

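SR proteins and heterogeneous nuclear ribonucleoproteins (hnRNPs) were followed as 37 genes after knockdown of FuHsi in NCI-H1299, an established line of human lung cancer cells. The genes were chosen by symbol, with earlier results of these data known. They were 13 SR genes (SRSF1 to SRSF11, TRA2A and TRA2B) and 24 hnRNP genes. Among the hnRNP genes, PTBP1, PTBP2, PTBP3 and SYNCRIP belong under other symbols. All 37 matched 1 row each of the 60617 rows of the table, and all 37 passed the filter on low counts that left 17223 genes for testing. The knockdown group was 3 libraries with the genotype label of a FuHsi knockdown and Sh1 in their titles. The control group was 3 libraries labelled wild type, with Puro in their titles. No knockdown other than Sh1 is named, so loss of FuHsi and other effects of Sh1 cannot be told apart. Both groups are the same line, which is labelled lung adenocarcinoma, and no drug, time point or clone is named for either. Nothing in the labels ties the replicates to separate cultures, so p-values measure the spread between these libraries, which may be technical.

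SR proteins carry RNA recognition motifs and a domain rich in arginine and serine. They bind enhancers within exons and recruit the spliceosome, so they mostly favour the inclusion of an exon. The hnRNPs coat nascent transcripts, bind silencers in exons and introns, and in many settings oppose SR proteins at the same exon. Several members of both families regulate their own transcripts through exons whose inclusion exposes the RNA to nonsense-mediated decay. Counts per gene do not separate those isoforms from the coding ones.

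Library totals were 24231515 to 27900051 counts in knockdown and 30735547 to 34306849 in control. KRT8, KRT18, VIM and CDH2 were expressed in all 6 libraries, whereas the epithelial markers EPCAM, CDH1 and KRT19 were at or below 0.552 CPM in knockdown and 0.493 in control (CPM are counts scaled to the library total with TMM factors, the trimmed mean of M values). Of the 6 keratin and mesenchymal markers that could be tested, KRT8 and VIM fell by 0.63 and 0.70 on the log2 scale and FN1 rose by 0.93, while KRT18 (-0.063), CDH2 (-0.0063) and COL1A1 (-0.17) were not called. The 6 listed leukocyte and endothelial markers stayed at or below 1.25 CPM in knockdown and 0.969 in control, and 1 of the 3 that could be tested, PTPRC, was higher in knockdown (1.43, adjusted p 0.0112 by edgeR), at 0.986 CPM or less. The part of these markers in the results was not tested. The row of FuHsi itself is not analysed here, so the depletion was not checked on its own transcript.

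After knockdown most members had lower counts relative to the library. The quasi-likelihood test of edgeR called 10 of 13 SR genes lower and 3 higher, and 20 of 24 hnRNP genes lower and 2 higher. In RNA from whole cultures, fewer cells of a kind and less RNA per cell cannot be told apart. Over all tested genes 30.9% were lower and 30.7% higher, or 61.6% in either direction at an adjusted p under 0.05. With library size alone in place of TMM factors, 7 SR genes were lower and 3 higher, 17 hnRNP genes lower and 4 higher, and 3855 of all genes lower and 6986 higher. DESeq2 called 10 SR genes lower and 0 higher (0 also at an unadjusted p under 0.05). The members are abundant transcripts, and 33 of 37 lie in the most abundant quintile of tested genes. In that quintile 60.3% of genes were lower and 26.7% higher. Of those 33 members, 28 fell and 3 rose. The median log2 fold change was -0.26 for SR genes and -0.41 for hnRNP genes, beside 0.03 for all tested genes and -0.20 for the most abundant quintile. The hnRNP genes were also more abundant, with a median log2 CPM of 8.68 against 7.43 for SR genes. The part of abundance in the difference between the families was not tested. Within the SR genes, the 8 genes SRSF1 to SRSF7 and SRSF9 had a median of -0.34 (7 lower, 1 higher). The other 5 SR genes had a median of -0.12 (3 lower, 2 higher). All 3 knockdown values lay below all 3 control values for 10 SR and 20 hnRNP genes, and above them for 1 SR and 2 hnRNP genes. Among all tested genes these shares were 32.3% below and 33% above, or 65.3% not overlapping.

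**Figure D1:**
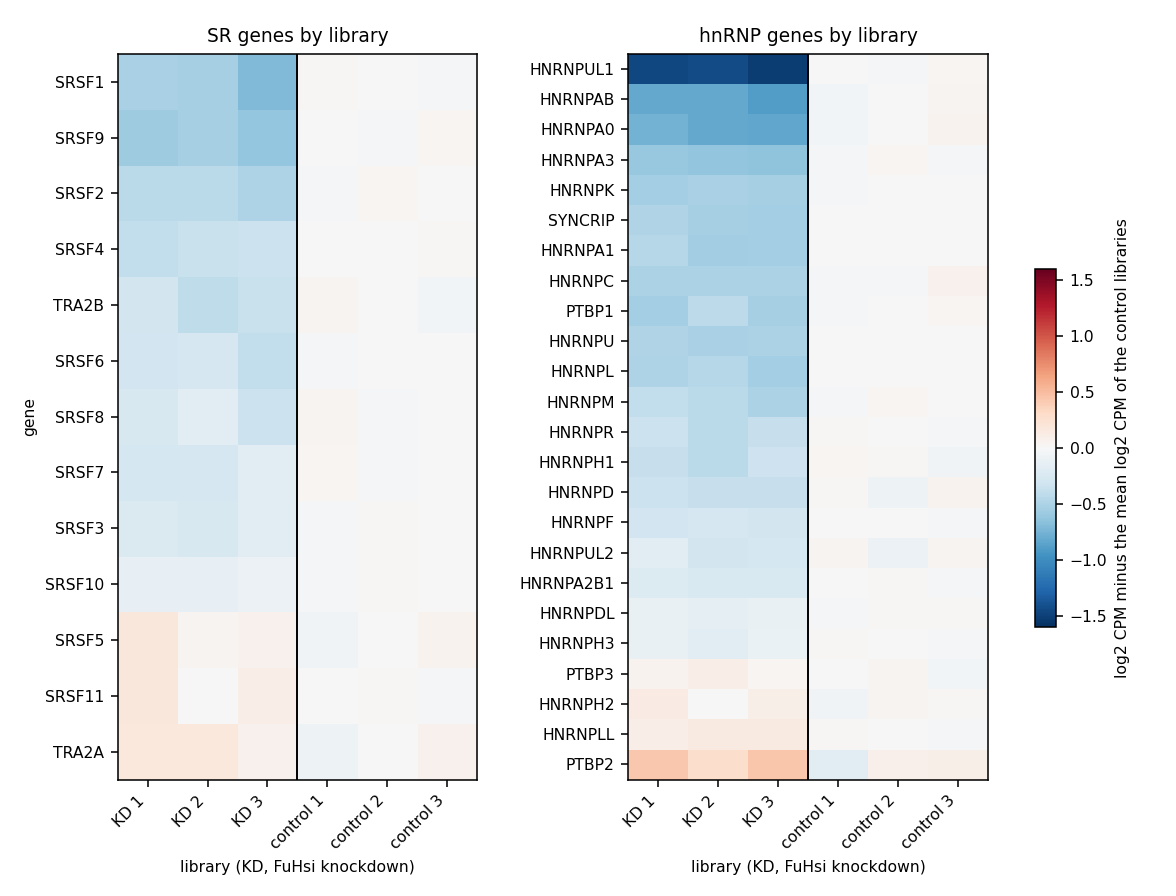
Each row is a gene and each column a library, knockdown libraries left of control libraries, and the colour is the log2 CPM minus the mean log2 CPM of the control libraries. Within each family genes run from the lowest fold change at the top to the highest at the bottom, from SRSF1 to TRA2A and from HNRNPUL1 to PTBP2.

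Changes were small in size. HNRNPUL1 was the only member called with a change of at least 2-fold, a class that held 12.3% of tested genes. In the most abundant quintile, where 33 of the 37 members lie, 198 of 3445 genes were in that class. The SR fold changes ran from -0.58 to 0.13 on the log2 scale and the hnRNP ones from -1.47 to 0.38. Scaling bears on such sizes: with library size alone, the median of all tested genes was 0.18 instead of 0.03, the SR median was -0.11 and the hnRNP median -0.26.

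**Figure D2:**
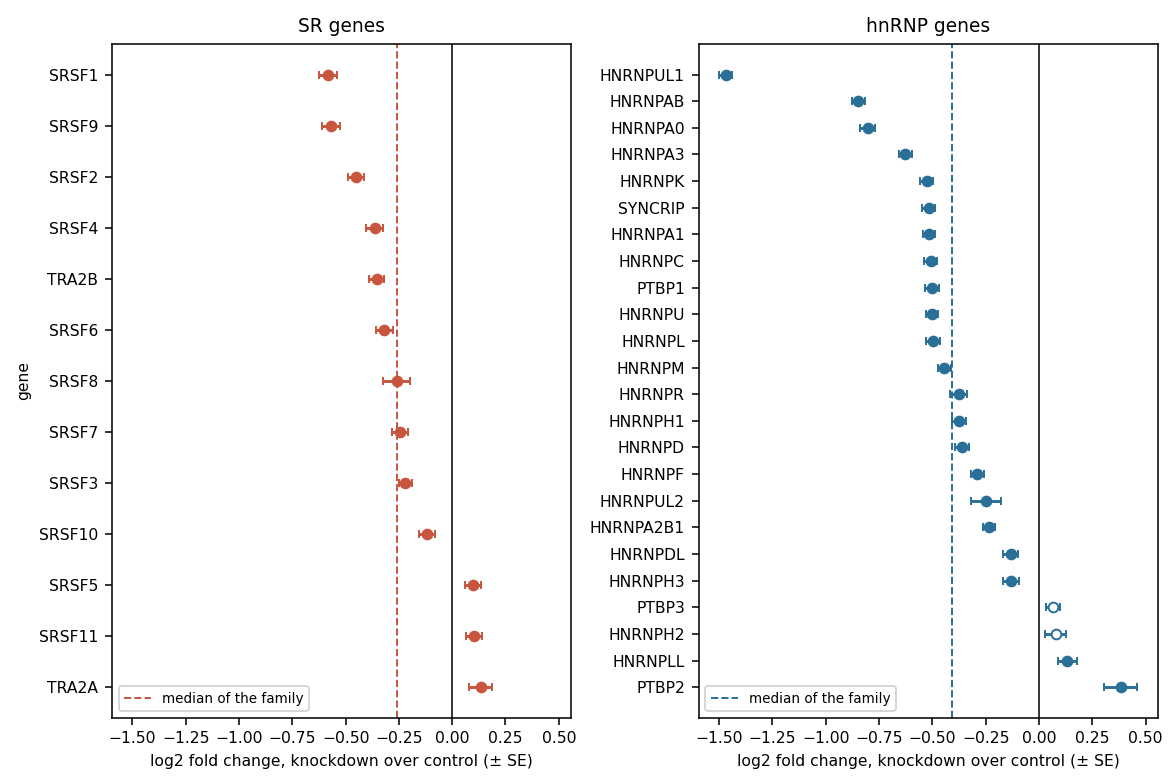
Points are log2 fold changes of knockdown over control for the SR genes (left) and the hnRNP genes (right), with bars of 1 standard error (SE), 3 libraries a group. Filled points passed the test and the open points, PTBP3 and HNRNPH2, did not; the dashed lines are the family medians, -0.26 and -0.41.

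Among the SR genes, SRSF1 and SRSF9 had the lowest fold changes. SRSF1, the founding member of the family and an activator of many cassette exons, had 112, 112 and 98.8 CPM in knockdown, against 163, 161 and 160 CPM in control. The groups did not overlap, and its log2 fold change was -0.58 ± 0.04 (SE), with an adjusted p of 1.46e-18. It lies on chromosome 17 (58003360 to 58007346, minus strand, GRCh38). SRSF9, which resembles SRSF1 in its pair of recognition motifs, had 88.8, 91.0 and 85.1 CPM in knockdown and 132, 128 and 134 CPM in control. It fell by 0.57 on the log2 scale (adjusted p 2.76e-18).

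The speckle protein SRSF2, also known as SC35, had 157, 158 and 151 CPM in knockdown and 207, 216 and 213 CPM in control, a log2 fold change of -0.45. SRSF4 and SRSF6, which share a long arginine-serine tail, fell by 0.36 and 0.32. SRSF3 and SRSF7, small SR proteins that also serve as adaptors for mRNA export, fell by 0.22 and 0.25. SRSF7 was at -0.092 with library size alone and was still called. SRSF3 was the most abundant SR gene by CPM, with 443, 437 and 465 CPM in knockdown and 515, 527 and 525 CPM in control. With library size alone SRSF3 lost its call (-0.07, adjusted p 0.053). SRSF8, a close relative of SRSF2, fell by 0.26 and lost its call under that scaling too (-0.11). SRSF10, a splicing repressor once dephosphorylated by heat shock, fell by 0.12 and was at 0.034 with library size alone, where it was not called.

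SRSF5, SRSF11 and TRA2A passed the test as rises of 0.10, 0.10 and 0.13 on the log2 scale, with adjusted p-values of 0.0189, 0.0173 and 0.0335. SRSF5, which promotes exon inclusion, had 267, 244 and 247 CPM in knockdown and 226, 238 and 245 CPM in control. SRSF11, which binds the U2 auxiliary factor, had 232, 205 and 219 CPM in knockdown, against 205, 207 and 200.04 CPM in control. Both genes overlapped between the groups, and knockdown replicate 1 held their highest value. TRA2A had 56.03, 55.8 and 52.18 CPM in knockdown and 47.3, 50.2 and 52.17 CPM in control, so its groups barely cleared each other. None of these 3 calls held in DESeq2, without a filter on low counts, without knockdown replicate 1 or without control replicate 1. Without knockdown replicate 1 the values were 0.05, 0.05 and 0.11, and without control replicate 1 they were 0.06, 0.10 and 0.09. SRSF5 also lost its call without control replicate 2 (0.09), SRSF11 without control replicate 3 (0.08), and TRA2A without control replicate 2 (0.13), without knockdown replicate 2 (0.11) or with RLE factors (0.12, adjusted p 0.0526). With library size alone all 3 were called, at 0.25, 0.25 and 0.29, and with upper-quartile factors at 0.16, 0.16 and 0.19. The 3 kept a positive sign under all 14 alternatives.

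TRA2B, the other human homologue of the fly splicing factor Transformer-2, fell by 0.35, with 220, 202 and 209 CPM in knockdown and 277, 269 and 260 CPM in control.

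HNRNPUL1 stood at the low end of both families. The gene encodes a nuclear protein with an SAP DNA-binding domain, related to HNRNPU and first found through its binding to an adenovirus protein. It had 519, 530 and 501 CPM in knockdown, against 1430, 1404 and 1456 CPM in control. The groups were far apart, with a log2 fold change of -1.47 ± 0.03 (SE), 2.77-fold lower, and an adjusted p of 6.2e-45. It lies on chromosome 19 (41262496 to 41307598, plus strand, GRCh38), and 3.29% of its exonic bases are shared with an exon of TGFB1 on the opposite strand. HNRNPUL2 was much less abundant, with 28.03, 25.8 and 26.1 CPM in knockdown and 32.7, 29.8 and 32.6 CPM in control. It fell by 0.25 and lost its call with library size alone (-0.09). HNRNPU, the scaffold attachment factor of this subfamily, had 801, 777 and 785 CPM in knockdown and 1113, 1117 and 1111 CPM in control, a fall of 0.50.

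A 7-base word, CTATTGA, is shown in its context in the members because an earlier scan of 7-base words on these same counts singled it out. The word was thus picked on these data. Its counts and the fold changes of genes that hold it are descriptions with no test, and they give no independent support. It was looked for, together with the overlapping words CCTATTG and ACCTATT, on the sense strand of 1 GENCODE v29 transcript per gene. HNRNPUL1 holds CTATTGA in its coding sequence (bases 635 to 641 of 2571) and again near the end of the 3′ UTR (bases 791 to 797 of 811), and 0.737% of 13291 scanned genes hold it in both. The other 3′ UTR sites of CTATTGA are in HNRNPA3, SRSF2 and SRSF8, which fell, and those in coding sequence are in SYNCRIP, which fell, and in SRSF5 and TRA2A. Capitals mark the word, with CCTATTG overlapping it in 1 SRSF8 site.
HNRNPUL1, coding: acccttgttgCTATTGAcacctataac
HNRNPUL1, 3′ UTR: gagagagtgaCTATTGAacttgaaacc
HNRNPA3, 3′ UTR: aaaagtgcagCTATTGAttaatgcaat
SRSF2, 3′ UTR: aagcaactggCTATTGAaaaggttatt
SRSF8, 3′ UTR: gaagaggctgCCTATTGAaaaggttgtg
SRSF8, 3′ UTR: ttttactgttCTATTGAtgg
SYNCRIP, coding: gatgaaagagCTATTGAagctttaaaa
SRSF5, coding: gaaagggttaCTATTGAacatgctagg
SRSF5, coding: ttaaagaatgCTATTGAaaaactttct
TRA2A, coding: gcccaagacgCTATTGA

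CTATTGA was in the 3′ UTR of 4 of 37 members (10.8%) and of 7.39% of all scanned genes. All 4 of those members fell, as did 30 of all 37 members, and their median log2 fold change was -0.54, beside -0.36 for all members and -0.12 for all scanned genes that hold the word there. In coding sequence it was in 4 members (10.8%) and 7.37% of all scanned genes, and of those 4 members 2 fell and 2 rose. Their median was -0.21, beside -0.04 for all scanned genes that hold the word there. Any of the 3 words in either region was in 13 members (35.1%) and 27% of scanned genes, and of those 13 members 10 fell and 3 rose. The median of those members was -0.45, beside -0.05 for all scanned genes with any of the words. Over all tested genes the median was 0.03, and scanned genes without the words were not summarized. HNRNPAB and HNRNPA0, the hnRNP genes with the next lowest fold changes, differ here: HNRNPAB holds none of the words and HNRNPA0 holds ACCTATT and CCTATTG in its 3′ UTR.

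The A/B group of hnRNPs, whose members pair recognition motifs with a glycine-rich tail and often repress exons, was lower throughout. HNRNPAB had 322, 322 and 307 CPM in knockdown and 553, 568 and 590 CPM in control, with a log2 fold change of -0.85. HNRNPA0 had 161, 154 and 153 CPM in knockdown, against 263, 271 and 283 CPM in control, at -0.80. HNRNPA3 fell by 0.63. HNRNPA1 was the most abundant member of both families in either group, with 1286, 1206 and 1217 CPM in knockdown and 1774, 1777 and 1753 CPM in control, and fell by 0.52. HNRNPA2B1, its close relative, fell less, by 0.23, with 763, 751 and 753 CPM in knockdown and 888, 901 and 879 CPM in control. It was at -0.081 with library size alone and was still called. HNRNPD (AUF1), a binder of AU-rich elements that promotes mRNA decay, fell by 0.36. HNRNPDL, its paralogue, fell by 0.13 and was at 0.021 with library size alone, where it was not called.

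The other hnRNP genes that fell bind a range of RNA sequences. HNRNPK, a KH-domain protein that binds C-rich RNA, fell by 0.53. SYNCRIP (hnRNP Q) fell by 0.52, HNRNPC, which binds U tracts, by 0.51, and PTBP1, which represses exons from CU-rich tracts, by 0.50. HNRNPL, which binds CA repeats, fell by 0.50, and HNRNPM by 0.44. HNRNPC was even across the knockdown libraries, with 525, 526 and 525 CPM there and 729, 730.3 and 783 CPM in control. HNRNPR, the relative of SYNCRIP, fell by 0.38. The G-run binders HNRNPH1 and HNRNPF fell by 0.38 and 0.29. HNRNPH3, a shorter relative, fell by 0.13 and was at 0.023 with library size alone, where it was not called.

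Members of the hnRNP group that did not fall were all paralogues of genes that did. PTBP2, which takes the place of PTBP1 in developing neurons, had 30.8, 27.7 and 31.04 CPM in knockdown and 20.2, 24.04 and 24.4 CPM in control. Its groups did not overlap, its log2 fold change was 0.38 ± 0.08 (SE) and its adjusted p was 1.84e-05. PTBP2 was called higher under all 14 alternatives. HNRNPLL, known for the switch of CD45 isoforms in activated T cells, had 87.6, 89.8 and 89.7 CPM in knockdown, against 82.2, 81.5 and 79.8 CPM in control. It rose by 0.13 (adjusted p 0.0083), a call that was lost in DESeq2 (0.11, adjusted p 0.065), and it was at 0.29 with library size alone and 0.19 with upper-quartile factors. HNRNPH2 had 77.7, 71.0 and 75.9 CPM in knockdown and 68.0, 73.1 and 71.8 CPM in control, with overlapping groups, a log2 fold change of 0.08 and an adjusted p of 0.165. PTBP3 had 274, 283 and 268 CPM in knockdown and 263, 272 and 254 CPM in control, at 0.07 with an adjusted p of 0.0949. HNRNPH2 and PTBP3 were called higher with library size alone (0.23 and 0.22) and with upper-quartile factors (0.14 and 0.13), and PTBP3 also under a stricter filter (0.09).

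PTBP1 and PTBP2 moved in opposite directions with the widest gap of any such pair. PTBP1 is known to repress PTBP2 through the skipping of an exon, which sends the PTBP2 mRNA to decay. Counts per gene do not show that exon, and its part in these values was not tested. In the 250 bases before the RefSeq starts on GRCh38.p14, searched on both strands, 44.9% of the 49 entries of members hold a CCAAT box (CCAAT), 63.3% a GC box (GGGCGG) and 14.3% an E-box (CACGTG). The shares over 35116 promoters of all genes, not limited to genes expressed here, were 32%, 42.6% and 6.34%. Some genes have several entries, and the windows of SRSF7 and of SRSF8 overlap, so the same box can count more than once. SRSF2, TRA2A and HNRNPA1 had no entry. These matches describe letters alone, and the counts hold no measurement at the promoters.

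Ratios of 2 members within a library do not depend on how libraries are scaled. For 15 paralogue pairs, the ratio of counts separated all 3 knockdown from all 3 control libraries in 11 pairs, 8 with a lower and 3 with a higher ratio in knockdown. The levels of 65.3% of single tested genes were separated in the same way, and ratios of other gene pairs were not computed. PTBP1 had 23.9 counts per count of PTBP2 in knockdown and 44.3 in control, a difference of -0.89 in log2 ratio. HNRNPUL1 had 19.4 counts per count of HNRNPUL2 in knockdown and 45.2 in control, a difference of -1.22. HNRNPL per HNRNPLL was 2.95 in knockdown and 4.57 in control, and PTBP1 per PTBP3 was 2.59 in knockdown and 3.84 in control. HNRNPH1 per HNRNPH2 was 4.63 in knockdown and 6.33 in control. The 3 higher ratios were TRA2A per TRA2B (0.260 in knockdown, 0.186 in control), SRSF5 per SRSF6 (2.10 in knockdown, 1.57 in control) and HNRNPR per SYNCRIP (0.261 in knockdown, 0.237 in control).

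HNRNPA1 per HNRNPA2B1 was 1.64 in knockdown and 1.99 in control, HNRNPA3 per HNRNPA2B1 was 0.492 in knockdown and 0.645 in control, and HNRNPD per HNRNPDL was 1.79 in knockdown and 2.10 in control. In the other 4 pairs the libraries of the groups overlapped. SRSF1 per SRSF9 was 1.22 in knockdown and 1.23 in control, and SRSF3 per SRSF7 was 2.83 in knockdown and 2.78 in control. SRSF4 per SRSF6 was 0.982 in knockdown and 1.01 in control, and HNRNPF per HNRNPH1 was 1.17 in knockdown and 1.10 in control. With 3 libraries against 3, an exact two-sided permutation test cannot go below p = 0.1, which each of the 11 separated pairs reached, and the Benjamini-Hochberg adjusted p over the 15 pairs was then 0.136.

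**Figure D3:**
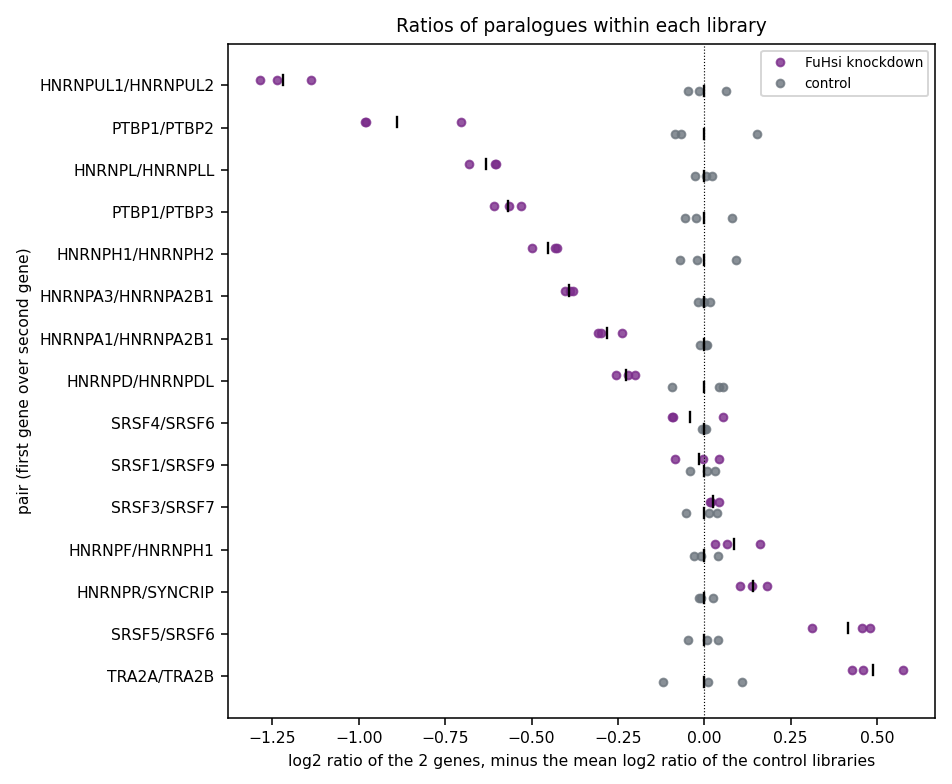
Each point is a library's log2 ratio of the counts of 2 genes, less the mean of the control libraries, with knockdown drawn above control in each row and black ticks at the means. HNRNPUL1/HNRNPUL2 (-1.22) and PTBP1/PTBP2 (-0.89) lie farthest to the left and TRA2A/TRA2B (0.49) farthest to the right.

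Summed over the family, hnRNP genes held a smaller share of each library after knockdown, and SR genes a slightly smaller one. The hnRNP genes took 0.993%, 0.971% and 0.966% of all counts in the knockdown libraries and 1.27%, 1.27% and 1.26% in the control libraries. Without HNRNPUL1 the share was 0.923% ± 0.0136 in knockdown and 1.13% ± 0.00494 in control (mean ± SD, n = 3). The SR genes took 0.231%, 0.221% and 0.225% in knockdown, against 0.238%, 0.239% and 0.236% in control, and these values did not overlap. SR counts per hnRNP count were 0.232, 0.228 and 0.233 in knockdown and 0.188, 0.188 and 0.187 in control. Leaving out HNRNPUL1, the ratio was 0.245 ± 0.00279 in knockdown and 0.210 ± 0.000381 in control (mean ± SD, n = 3). These sums were not tested, nor was the difference between the families.

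**Figure D4:**
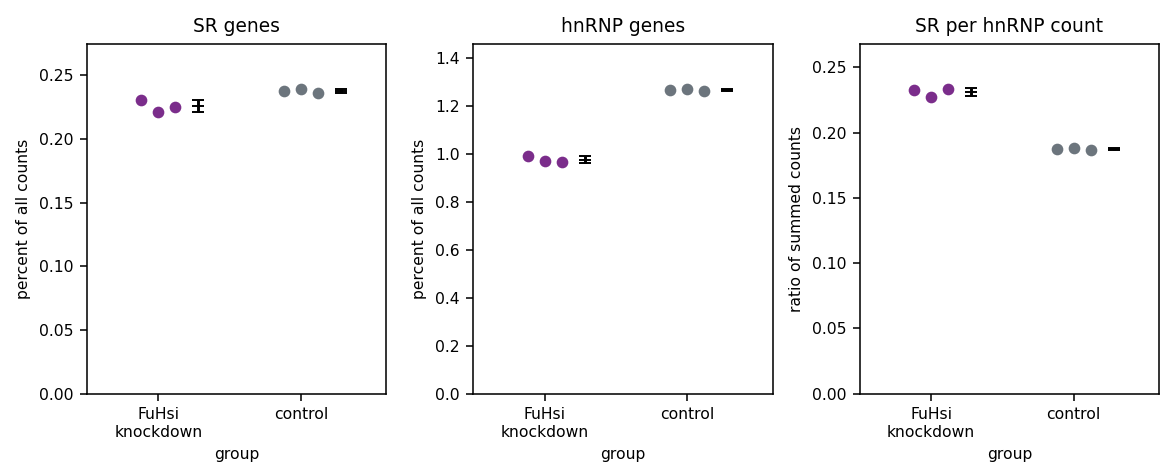
The panels show the summed counts of SR genes and of hnRNP genes as a percentage of all counts, and the ratio of the first sum to the second, for each library (coloured points) with mean ± SD (black, 3 libraries a group). The hnRNP share is lower in all 3 knockdown libraries (0.966% to 0.993%) than in the control libraries (1.26% to 1.27%), and the ratio is higher.

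Fold change was set beside abundance across the genes of each family. Across the 24 hnRNP genes Spearman's rho between mean log2 CPM and log2 fold change was -0.66, across the 13 SR genes 0.31, and across all 17223 tested genes -0.29. The genes share the same 6 libraries and are not replicates, so these values are descriptions. The SR value rests on 13 genes, and the difference in sign between the families was not tested. PTBP2, with the largest rise, was the least abundant of all 37 by mean CPM.

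**Figure D5:**
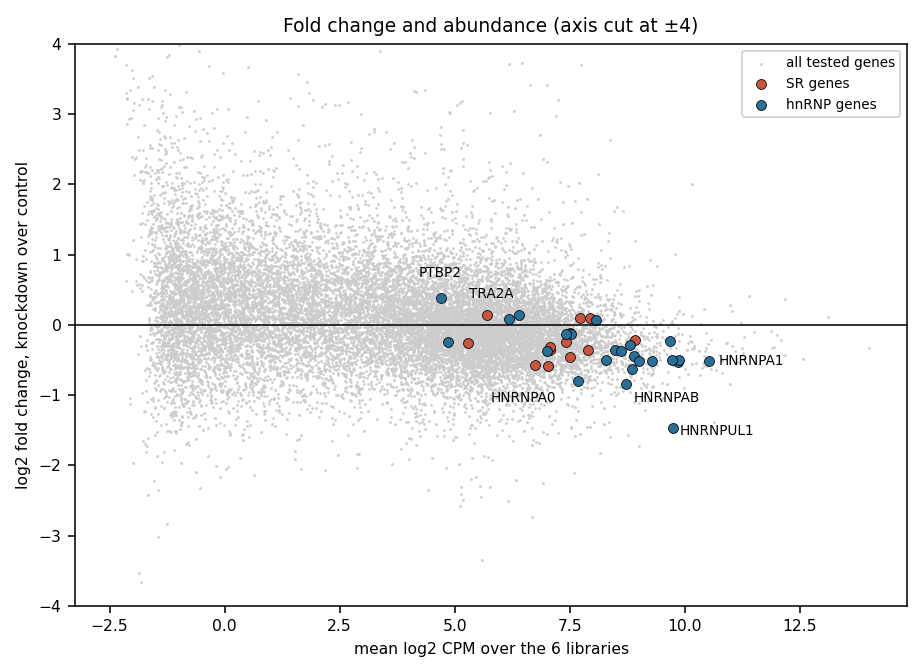
Grey points are all tested genes and coloured points the members, with mean log2 CPM on the x axis and log2 fold change of knockdown over control on the y axis; 43 tested genes lie beyond the plotted limits of 4 and -4. Most members sit at the abundant end and below 0, with HNRNPUL1 lowest.

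Per kilobase of exon, HNRNPA1 ranked first in both groups, with 243 CPM per kilobase in knockdown and 347 in control. The lengths pool the annotated exons of all isoforms of a gene, 22512 bases for HNRNPU. The ranks therefore compare levels between genes only roughly. HNRNPAB, HNRNPK and HNRNPUL1 followed in control, at 266, 219 and 219. In knockdown the order was HNRNPK at 152, HNRNPAB at 148 and HNRNPF at 124, and HNRNPUL1 was seventh at 78.9. SRSF3 had the highest level of the SR genes in knockdown, 63.0 CPM per kilobase, and also in control, 73.3. PTBP2 was lowest of all members, at 2.31 in knockdown and 1.77 in control.

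Regulators of these proteins changed in both directions, and how their calls split depended on the scaling. The 18 kinases, import and export receptors and arginine methyltransferases that act on SR proteins or hnRNPs had 6 members higher and 10 lower, or 7 and 7 with library size alone. Their median was -0.20. SRPK1, the cytoplasmic kinase that phosphorylates SR proteins ahead of nuclear import, had 82.2, 78.6 and 83.3 CPM in knockdown and 150.4, 148 and 143 CPM in control, a log2 fold change of -0.85. CLK4, a nuclear kinase of the same proteins, had 25.9, 26.5 and 32.2 CPM in knockdown and 15.9, 16.03 and 15.1 CPM in control, and rose by 0.84. CARM1 and PRMT6, enzymes of arginine methylation, moved apart, with CARM1 at -0.66 and PRMT6 at 1.04.

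Of 25 tested genes for SR-related splicing proteins, 3 rose and 15 fell, with a median of -0.10, and with library size alone 8 were higher and 7 lower. RSRC2 and RSRP1, which carry arginine-serine stretches, rose by 0.79 and 0.54. LUC7L2, a factor associated with U1 particles, fell by 0.94, and RNPS1, an exon junction protein, by 0.60. Of 36 tested genes for other splicing regulators, 8 rose and 22 fell, with a median of -0.28, beside -0.20 for the most abundant quintile. With library size alone 11 were higher and 18 lower, and without knockdown replicate 3 only 4 were higher.

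QKI, which binds ACUAA-type elements, had 92.2, 88.6 and 86.7 CPM in knockdown and 258, 260 and 261 CPM in control and fell by 1.54. NONO, a paraspeckle protein, fell by 1.04. MBNL2 and MBNL3 of the muscleblind family rose by 1.14 and 0.51. Of 15 genes for nonsense-mediated decay, 2 rose (UPF2 by 0.48 and UPF3B by 0.14) and 10 fell, with UPF3A at -0.80, EIF4A3, a core of the exon junction complex, at -0.61 and a list median of -0.23. With library size alone 5 were higher and 6 lower. Only 1 was higher without knockdown replicate 3 or without any 1 of the control replicates.

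Shared sequence limits some of these counts. By GENCODE v29, 6 members share at least 10% of their exonic bases with an exon of another gene. SRSF1 shares 60.7% with AC015813.2, a gene on the same strand listed at 0 counts in all 6 libraries, and with AC015813.5 on the opposite strand, which fell by 0.44. SRSF9 shares 46.2% with GATC on the opposite strand, which fell by 0.56, and SRSF2 shares 36.7% with MFSD11 on the opposite strand (0.12, not called) and MIR636. HNRNPUL2 shares 44.2% and HNRNPH2 16.3% with read-through genes listed at 0, and HNRNPU shares 15.6% with COX20 (0.34, not called). Whether the counting used strand is not given in the sources used here, so reads in those stretches cannot be assigned. Many hnRNP genes have processed pseudogenes, and 134 rows carry a member's symbol with a pseudogene number, 74 of them for HNRNPA1. They held at most 0.895% of their parent's counts in either group, and 12 passed the filter, of which 1 rose and 1 fell.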

How the data were processed

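RNA of 6 libraries was measured by RNA sequencing. The authors deposited whole-number read counts per Ensembl gene, without normalization. The submitters' processing notes name featureCounts 2.0.1, STAR 2.7.0d with hg38, Trim Galore 0.6.6 and DESeq2 1.30.1. The annotation, strand setting and handling of multiply aligned reads are not given there. Of the rows, 60261 matched a table of gene names and 335 matched GENCODE v29 alone.

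Counts were filtered with filterByExpr (minimum count 10), scaled by TMM and tested with the quasi-likelihood test of edgeR 4.0.16 (R 4.3.3), group being the only term. P-values were adjusted over 17223 genes by the Benjamini-Hochberg method, with calls made below 0.05. The SE came from the test statistic, CPM used TMM-scaled sizes, and log2 CPM a prior count of 2. Lengths, coordinates and transcripts came from GENCODE v29 on GRCh38. Pair ratios were tested with SciPy 1.17.1. The common biological coefficient of variation was 4.67%.

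In simulated counts for knockdown against control with 16875 genes tested, edgeR recovered, with the right sign, 75 of 95 genes set to a change of 1 on the log2 scale and 63 of 100 set to 0.5, and called 9 genes set to no change. The changed genes were few and drawn from all levels of abundance, whereas 61.6% of tested genes were called in the data. These numbers therefore do not give the recovery for the mostly abundant members. DESeq2 1.42.0, other scalings and filters, leaving out a library, and a replicate block were the alternatives. The members, the 4 lists of regulators and the pairs were chosen with earlier results of these data known. The rule for named genes took all members and, from each list, up to 2 called rises and 2 called falls with the largest changes at a mean log2 CPM of at least 1.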

Additional observations from a re-analysis of the deposited data

How the results depend on the processing

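Calls and signs of 25 of the 37 members held under all 14 alternatives. SRSF10, HNRNPDL and HNRNPH3 changed sign with library size alone, to 0.034, 0.021 and 0.023. These 3 genes were not called there or with upper-quartile factors (-0.059, -0.073 and -0.071). DESeq2 called 0 SR genes higher (0 also at an unadjusted p under 0.05) and 1 hnRNP gene higher, with medians of -0.29 for SR, -0.44 for hnRNP and 0.13 for all its genes; 5 other splicing regulators and 1 decay factor were higher. Without a filter edgeR called 0 SR genes higher (3 at an unadjusted p under 0.05) and 1 decay factor higher, and the median of all genes was 0.14. With library size alone 4 hnRNP genes were higher, SR-related genes had 8 higher and 7 lower, and decay factors 5 higher and 6 lower; the medians were -0.11 for SR, -0.26 for hnRNP and 0.18 for all genes. Upper-quartile factors gave 9 SR genes lower, 18 hnRNP genes lower and 4 hnRNP genes higher. The medians were then -0.20 for SR and -0.35 for hnRNP. The stricter filter gave an SR median of -0.24. RLE factors gave 2 SR genes and 1 decay factor higher. In these cases the cause was not tested. Leaving out 1 library gave 0 to 3 SR genes higher (0 without knockdown replicate 1 or control replicate 1, where 0 and 1 passed at an unadjusted p under 0.05, and 1 without control replicate 2) and 10 lower, with SR medians of -0.31 to -0.25 and hnRNP medians of -0.44 to -0.41. It gave 4 to 8 other splicing regulators and 1 to 2 decay factors higher. Deviations of same-numbered libraries correlated at -0.000751, -0.00642 and -0.0235, so the numbers gave no sign of pairing. With the replicate block, 10 SR genes were lower and 3 higher, 20 hnRNP genes lower and 2 higher, and 1 decay factor higher. Thinning to the smallest library, chosen after seeing the data, changed no member's call.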
